A study of Mus musculus with 8 samples.

Results

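The 10 genes described here form the insulin-like growth factor axis as it was read in whole mouse pancreas: the ligand gene Igf1, the receptor genes Igf1r, Insr and Igf2r, the carrier genes Igfals, Igfbp4, Igfbp5 and Igfbp7, and the receptor substrate genes Irs1 and Irs2. They are 10 of the 11789 genes in the deposited table, and all 10 passed the filter of a mean of at least 10 normalized read counts that left 10468 genes for testing. A gene belongs to the set if it is on a list of axis genes and in the table, and the list was drawn up with the genotype differences in these normalized counts known, so the genes count as chosen by them. Genotype differences of the 10 genes are therefore given as descriptions, without a test.

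The study sequenced RNA from whole pancreas of mice aged 6 weeks, 4 wild type and 4 with the genotype Daxx fl/fl and a Pdx1-Cre transgene. Daxx is a histone chaperone gene, and the Pdx1 promoter drives Cre in the progenitors of exocrine and endocrine pancreas, so that vessels, stroma, immune cells and fat keep intact floxed alleles. No control in the labels carries Cre without floxed Daxx or floxed Daxx without Cre, so Daxx loss, the transgene and the floxed alleles cannot be told apart. Libraries held 7705789 to 10517508 reads over the listed genes. Daxx had 39.7 to 58.7 normalized counts in the wild-type libraries, against 23.3 to 32.5 in the Daxx-deleted ones, and the genotypes did not overlap. The acinar lipase gene Pnlip had a mean of 822920 normalized counts, and 10 of 10 acinar markers were listed. In a bulk sample, fewer cells of a type and less RNA per cell cannot be told apart.

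Insulin-like growth factors circulate bound to carrier proteins. IGF1 acts through the tyrosine kinase receptor encoded by Igf1r, while Insr encodes the related insulin receptor, and both pass the signal to the docking proteins encoded by Irs1 and Irs2. The acid-labile subunit, the product of Igfals, joins IGF and IGFBP3 or IGFBP5 in a large serum complex that keeps the ligand in the circulation. Liver is the main source of that subunit, and growth hormone, acting through the transcription factor STAT5, is its main inducer there. In the pancreas, stromal cells make IGF1, which acts on exocrine and islet cells. Which cells made the Igf1 RNA in these bulk samples was not tested.

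Igf1, the only ligand gene of the set, overlapped between genotypes. It lies on chromosome 10 from 87858265 to 87937042, forward strand (GRCm38, as are all gene positions given here). Its normalized counts were 271.4, 286.9, 211.3 and 308.1 in wild-type replicates 1 to 4, against 288.0, 286.6, 215.6 and 233.1 in Daxx-deleted replicates 1 to 4. Wild-type replicate 3 and Daxx-deleted replicate 3 were the lowest of their groups, although replicate numbers pair no animals. The genotypes overlapped over most of their range. The means were 269.4 ± 41.6 (SD, n = 4) and 255.8 ± 37.0 (SD, n = 4). The log2 difference, Daxx-deleted minus wild type on the log2(value + 1) scale, was -0.07 ± 0.15 (SE), with a 95% interval of -0.38 to 0.24. As a fold, that interval ran from 0.768 to 1.18, and with single libraries left out the difference ran from -0.18 to 0.01. Igf2, which encodes the other growth factor ligand, was not among the listed genes. The insulin genes varied several-fold within each genotype, with Ins1 at 1122 ± 596.1 and 891.0 ± 620.8 and Ins2 at 1861 ± 969.2 and 1645 ± 1338 (SD, n = 4 each).

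By the SD of log2 values pooled over both genotypes, Igf1r, Insr and Igf2r varied least of the 10 genes, although Igf1r had a coefficient of variation of 17.1% in wild type against 3.90% in Daxx-deleted pancreas. Igf2r encodes the mannose 6-phosphate receptor, which takes up and degrades IGF2 and carries lysosomal enzymes, and lies on chromosome 17 from 12682406 to 12769664, reverse strand. Its normalized counts were 868.0, 1012.1, 927.0 and 850.8 in wild type, against 751.5, 924.7, 823.8 and 969.0 in Daxx-deleted replicates 1 to 4, with overlapping groups and means of 914.5 ± 72.8 and 867.2 ± 98.2 (SD, n = 4 each). Insr, on chromosome 8 from 3122061 to 3279617, reverse strand, had 542.8, 682.1, 635.9 and 568.4 in wild type, against 531.6, 489.0, 596.7 and 592.1 in Daxx-deleted replicates 1 to 4. The lowest and the second lowest Insr values both came from Daxx-deleted libraries, and the other values were interleaved. The log2 differences were -0.08 ± 0.11 (SE) for Igf2r and -0.14 ± 0.11 (SE) for Insr, and with single libraries left out they ran from -0.14 to -0.01 for Igf2r and from -0.19 to -0.08 for Insr.

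Igf1r, on chromosome 7 from 67952827 to 68233668, forward strand, also overlapped between genotypes. The wild-type libraries had 193.0, 267.4, 271.7 and 208.9 normalized counts, and the Daxx-deleted libraries had 267.4, 255.7, 279.1 and 259.3. Wild-type replicates 1 and 4 were below every Daxx-deleted library, and wild-type replicates 2 and 3 were level with them. The means were 235.3 ± 40.2 and 265.4 ± 10.4 (SD, n = 4 each), a log2 difference of 0.19 ± 0.13 (SE) with a 95% interval of -0.10 to 0.47. Without wild-type replicate 1 that difference was 0.10. Insrr, which encodes a relative of the insulin receptor, had 18.5 ± 13.1 and 18.1 ± 14.7 (SD, n = 4 each).

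Igf1r was low relative to Insr in every library, and this ratio does not depend on library scaling. Per kb of annotated exon, the ratio of Igf1r to Insr was 0.291, 0.321, 0.350 and 0.301 for wild-type replicates 1 to 4, against 0.412, 0.428, 0.383 and 0.359 for the Daxx-deleted ones. The genotypes did not overlap in this ratio, although they overlapped in each gene alone. Of 5 such ratios computed 2 separated the genotypes, the other being Igfals to Igf1, at 0.749 to 1.28 in wild type against 0.183 to 0.545 in Daxx-deleted libraries. Both ratios were singled out after their values were seen, and neither was tested. Igfals separated the genotypes on its own, and the share of separating ratios over other gene pairs was not computed. Nothing is read from the count of 2.

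**Figure D1:**
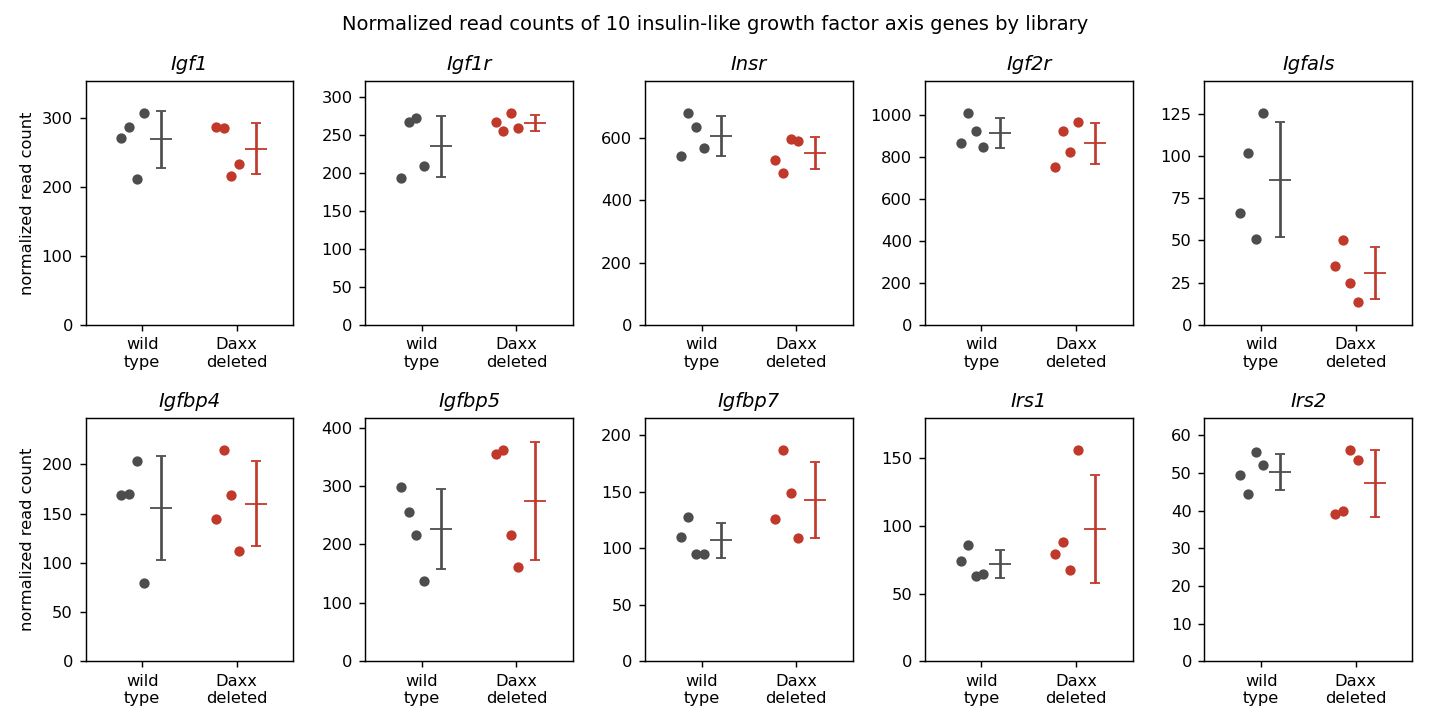
Normalized read counts (vertical axes, from 0, one scale per gene) of the 10 genes in 4 wild-type libraries (grey) and 4 Daxx-deleted libraries (red), with each group's mean and SD at the right of its points. Igfals points separate by genotype, from 50.6 upward in wild type and from 49.98 downward in Daxx-deleted pancreas, and the points of the other 9 genes overlap.

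Igfals had the lowest Daxx-deleted level relative to wild type in the set. Its normalized counts were 66.1, 101.7, 50.6 and 125.7 in wild-type replicates 1 to 4, against 35.1, 49.98, 24.995 and 13.6 in Daxx-deleted replicates 1 to 4. All 4 Daxx-deleted libraries lay below all 4 wild-type libraries, but the highest of one group and the lowest of the other nearly touched. The means were 86.0 ± 34.0 and 30.9 ± 15.4 (SD, n = 4 each), so that the Daxx-deleted mean was 35.9% of the wild-type mean. The log2 difference was -1.50 ± 0.34 (SE), with a 95% interval of -2.24 to -0.77. Igfals was the only member whose genotypes did not overlap with the Daxx-deleted side lower, as was the case for 1.04% of tested genes. Since this contrast chose the gene, nothing is read from that count. With libraries scaled to equal totals the separation was lost, since Daxx-deleted replicate 2 then had 58.5 and wild-type replicate 3 had 49.5. The log2 difference was then -1.38, against a median of 0.11 over all tested genes under that scaling.

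The read numbers behind Igfals were small, and the spread within a genotype was still wider than counting noise. Wild-type replicate 3 had 52 reads, with an exact 95% Poisson interval of 37.8 to 66.4 normalized counts, and wild-type replicate 4 had 142 reads, with an interval of 105.9 to 148.2. In the Daxx-deleted group the intervals of replicate 4 (13 reads, 7.27 to 23.3) and replicate 2 (60 reads, 38.1 to 64.3) were also apart. Daxx-deleted replicate 2 and wild-type replicate 3 could not be separated by their counts. These intervals cover counting error only.

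**Figure D2:**
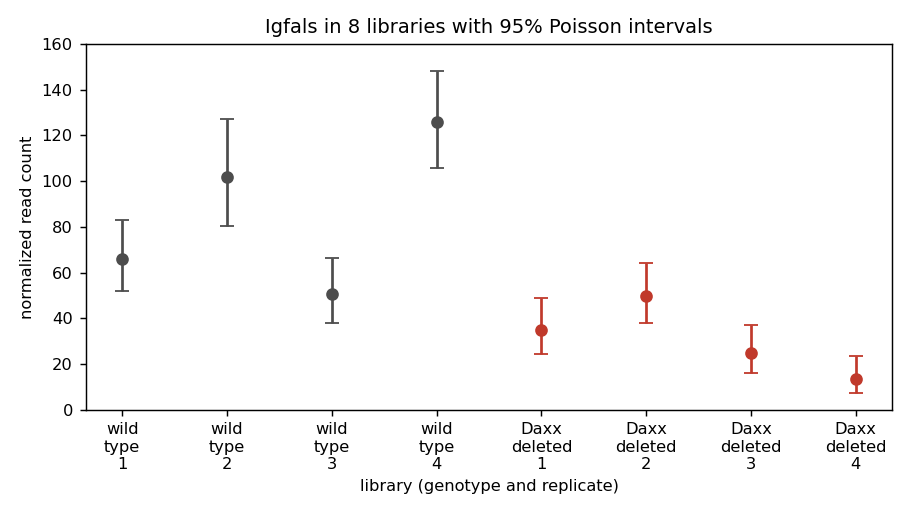
Igfals normalized read counts (vertical axis, from 0) in each of the 8 libraries (horizontal axis) with exact 95% Poisson intervals as bars, wild type in grey and Daxx-deleted in red. The lowest wild-type library, at 50.6, and the highest Daxx-deleted library, at 49.98, share most of their intervals, while wild-type replicate 4 at 125.7 and Daxx-deleted replicate 4 at 13.6 stand far apart.

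Igfals (ENSMUSG00000046070.8) lies on the forward strand of chromosome 17, from 24865997 to 24882010 (GRCm38). Its promoter is shown because growth hormone is known to act on this gene through STAT5, whose sites follow the pattern TTCNNNGAA. RefSeq (GRCm38.p6) gives Igfals several starts, and the window before the start at 24878231 held a match to that pattern and a match to the forkhead pattern GTAAACA on the reverse strand. The stretch chr17:24877981-24878214, forward strand, ends just before the next annotated exon and lies before the first exon of the protein-coding transcript, inside introns of longer non-coding Igfals transcripts (GENCODE M21). Capitals mark the forkhead match (bases 24877989 to 24877995) and the STAT5 match (bases 24878173 to 24878181).

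Igfals: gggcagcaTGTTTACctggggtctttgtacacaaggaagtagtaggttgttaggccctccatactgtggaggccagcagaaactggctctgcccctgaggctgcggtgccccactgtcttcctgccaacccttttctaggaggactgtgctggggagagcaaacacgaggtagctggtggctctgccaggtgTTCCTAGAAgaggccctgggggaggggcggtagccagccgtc

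Another Igfals window, before the start at 24877844, held a second match to the STAT5 pattern, shown for comparison with the first and marked in capitals in the stretch chr17:24877594-24877655, forward strand.

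Igfals upstream: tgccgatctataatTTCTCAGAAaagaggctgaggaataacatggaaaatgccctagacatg

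RefSeq windows, each from 250 bases before to 50 bases after a start, were found for 9 of the 10 genes, 11 windows in all, with no entry for Insr. Searched on both strands, the STAT5 pattern occurred in 2 of the 11, both of Igfals, and the forkhead pattern in 1. Igfals had more windows than the other genes, which had 1 each. A further Igfals window, chr17:24878497-24878796, held neither pattern. Over all 32851 windows of this length the shares were 8.30% and 3.65%. Both patterns are short, and a match describes the letters, not binding.

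The binding protein genes Igfbp4, Igfbp5 and Igfbp7 had positive differences, opposite in sign to Igfals. Igfbp4 lies on chromosome 11 from 99041244 to 99054392, forward strand, Igfbp5 on chromosome 1 from 72857932 to 72874884, reverse strand, and Igfbp7 on chromosome 5 from 77349240 to 77408041, reverse strand. Igfbp5, whose product can join the serum complex with the acid-labile subunit and also binds extracellular matrix, had 298.7, 255.6, 216.2 and 137.2 normalized counts in wild type, against 355.1, 362.4, 216.6 and 161.7 in Daxx-deleted replicates 1 to 4. Daxx-deleted replicates 1 and 2 were above all wild-type libraries, and the other values were mixed. Igfbp4, whose product holds IGF until it is cut by the protease encoded by Pappa, had 169.2, 169.6, 203.5 and 79.7 in wild type, against 144.5, 214.9, 168.7 and 112.3 in the Daxx-deleted ones. Wild-type replicate 4 and Daxx-deleted replicate 4 were lowest in their groups for both genes. The log2 differences were 0.25 ± 0.26 (SE) for Igfbp5 and 0.08 ± 0.25 (SE) for Igfbp4. That of Igfbp5 was 0.03 without wild-type replicate 4, 0.10 without Daxx-deleted replicate 1 and 0.09 without Daxx-deleted replicate 2. That of Igfbp4 was -0.21 without wild-type replicate 4 and -0.07 without Daxx-deleted replicate 2.

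Igfbp7, an IGF-binding-related gene of vessels and stroma whose product binds insulin-like growth factors weakly, had the highest positive difference of the 10 genes. It had 110.2, 127.8, 95.4 and 94.7 normalized counts in wild type, against 125.9, 187.4, 148.9 and 109.2 in Daxx-deleted replicates 1 to 4. Daxx-deleted replicates 2 and 3 were above all wild-type libraries, and the other 2 lay within the wild-type range. The means were 107.0 ± 15.6 and 142.9 ± 33.9 (SD, n = 4 each), with a log2 difference of 0.39 ± 0.17 (SE) and a 95% interval of 0.02 to 0.77. Without Daxx-deleted replicate 2 the difference was 0.26.

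Of the other genes on the list of carriers and binding proteins, Igfbp3 and Igfbp6 were tested. Neither was called, where 0% of the 10468 tested genes were. Igfbp3, the main serum carrier, had 77.7 ± 18.3 and 86.5 ± 10.6, and Igfbp6 had 60.5 ± 18.8 and 66.0 ± 14.6 (SD, n = 4 each). Igfbp2 was listed at 0 to 8.76 and was too low to be tested, and Igfbp1 and Igfbpl1 were not listed. Among genes that cut binding proteins or control that cleavage, Adamts1 had 33.9 ± 5.01 and 46.6 ± 11.4, and Htra1 had 66.9 ± 14.1 and 54.9 ± 12.8 (SD, n = 4 each). Of the 5 tested genes of this kind 2 lay above the median log2 difference of all tested genes and 3 below it.

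The substrate genes Irs1 and Irs2 dock to the activated receptors. Irs1 lies on chromosome 1 from 82233101 to 82291416 and Irs2 on chromosome 8 from 10984681 to 11008458, both on the reverse strand. Irs1 had 74.0, 86.1, 63.3 and 64.6 normalized counts in wild type, against 79.5, 88.3, 67.7 and 156.4 in Daxx-deleted replicates 1 to 4. Daxx-deleted replicate 4 was the highest by a wide margin, and the other 7 libraries ran from 63.3 to 88.3 with both genotypes mixed. The log2 difference of 0.37 ± 0.22 (SE) came to 0.13 without that library. Irs2 had 44.3 to 55.5 in wild type, against 39.2 to 56.2 in the Daxx-deleted ones, with means of 50.4 ± 4.73 and 47.2 ± 8.90 (SD, n = 4 each). Its log2 difference was -0.10 ± 0.19 (SE) and ran from -0.19 to -0.02 with single libraries left out.

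**Figure D3:**
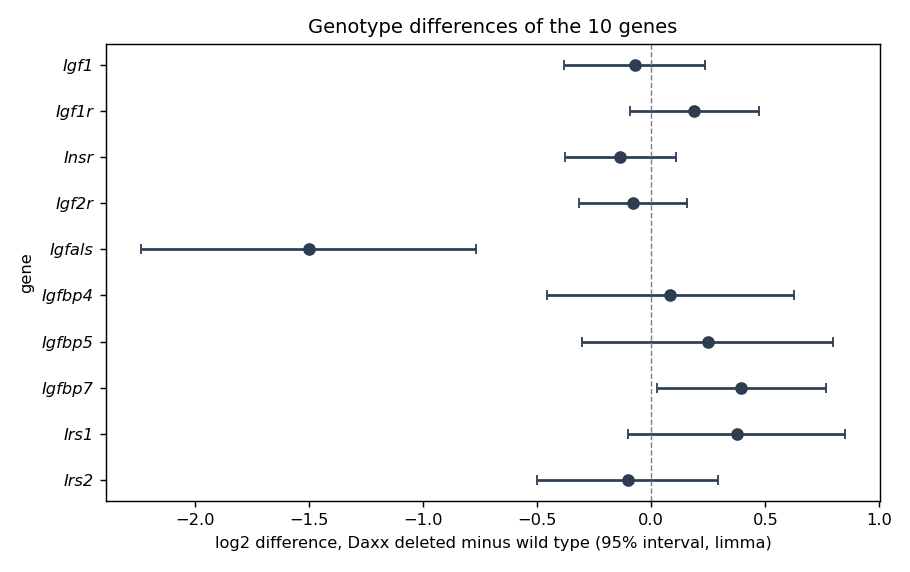
Log2 differences between genotypes (horizontal axis, Daxx-deleted minus wild type) with 95% intervals from limma (bars) for the 10 genes (vertical axis). Igfals sits at -1.50 and the other 9 genes lie between -0.14 and 0.39.

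Compared per kb of annotated exon over all 8 libraries, the genes fell into a graded order. Igfbp7 (103.3 ± 25.7 normalized counts per kb, SD, n = 8) and Igf2r (95.7 ± 9.02) led, and their ranges overlapped, with Igfbp7 above Igf2r in 3 of 8 libraries. Igf2r was above Insr (42.2 ± 4.44) in 8 of 8 libraries, with no overlap of their ranges. Insr, Igfbp5 (41.7 ± 13.9), Igfbp4 (35.7 ± 10.2) and Igf1 (26.5 ± 3.75) followed, each with a range that overlapped that of its neighbour. Igfals (18.5 ± 12.1) was above Igf1r (14.9 ± 1.88) in 4 of 8 libraries. Igfals had means of 27.2 per kb in wild type, against 9.77 in Daxx-deleted pancreas, but its order with Igf1r did not divide cleanly by genotype. Igfals was just below Igf1r in wild-type replicate 3 and just above it in Daxx-deleted replicate 2. Irs1 (9.29 ± 3.32) and Irs2 (7.72 ± 1.08) came last over the 8 libraries, with Irs1 above Irs2 in 5 of them. In Daxx-deleted pancreas the mean of Irs1, 10.7 per kb, was above that of Igfals. This rested on Daxx-deleted replicate 4, with 17.1 for Irs1 and 4.31 for Igfals, and in every other Daxx-deleted library Igfals was above Irs1. The lengths join the exons of all annotated transcripts of a gene, which lowers the value of genes with many rarely used exons.

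Variation between animals of one genotype was uneven over the set. The pooled within-genotype SD on the log2 scale was 0.68 for Igfals, 0.53 for Igfbp5 and 0.50 for Igfbp4. Among tested genes with a mean within 1.5-fold of theirs, 1.13% of 2662 had a larger SD than Igfals, 1.25% of 1520 than Igfbp5 and 1.52% of 2303 than Igfbp4. Irs1 followed with an SD of 0.40, where 9.54% of 2705 genes were larger. Igfbp7 (0.28), Igf1 (0.22), Irs2 (0.21) and Igf1r (0.18) varied less. Insr and Igf2r had an SD of 0.14 each, with 65.0% of 583 and 60.6% of 343 genes of like abundance above them.

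The wider pathway showed no called gene. By limma with Benjamini-Hochberg adjustment over all tested genes, 0 of the 51 tested pathway genes outside the set passed an adjusted p of 0.05, where 0% of the 10468 tested genes did. Of the 51 genes 22 lay above 0 and 29 below, or 43.1% above, against 48.1% of all tested genes. Their median log2 difference was -0.01, the same to 2 decimals as that of all tested genes. With equal library totals 38 of the 51, or 74.5%, lay above 0, against 74.3% of all tested genes, so the lists are described relative to the median of all tested genes, where 26 lay above and 25 below under both scalings. At an unadjusted limma p under 0.05 there were 2 of 51, Cish and Prlr, or 3.92%, against 2.88% of all tested genes.

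Both of those genes belong to the list of growth hormone and prolactin signalling. Cish encodes an inhibitor of cytokine receptors that STAT5 induces. It had 252.0, 166.9, 222.0 and 338.2 normalized counts in wild type, against 257.0, 56.6, 112.5 and 108.1 in Daxx-deleted replicates 1 to 4. Daxx-deleted replicate 1 was at the level of the wild type, and the other 3 were below every wild-type library. The log2 difference was -1.03 ± 0.33 (SE), and limma gave an unadjusted p of 0.00695 and an adjusted p of 0.9997. Without Daxx-deleted replicate 2 it was -0.69. Daxx-deleted replicate 2 was the lowest of its group for Cish and the highest for Igfals.

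Prlr, the prolactin receptor gene, had 42.3, 11.7, 22.4 and 17.7 normalized counts in wild type, against 7.23, 9.16, 14.6 and 13.6 in Daxx-deleted replicates 1 to 4. Wild-type replicate 1 stood highest, and wild-type replicate 2 lay among the Daxx-deleted libraries. Its log2 difference was -0.92 ± 0.38 (SE), with an adjusted limma p of 0.9997, and without wild-type replicate 1 it was -0.59. The other 7 tested genes of this list had log2 differences from -0.26 for Socs3 to 0.14 for Socs2. Ghr, the growth hormone receptor gene, had 450.0 ± 72.8 and 460.2 ± 49.6, Stat5b had 149.9 ± 14.9 and 161.8 ± 29.6, and Socs2, another STAT5 target, had 43.1 ± 17.7 and 46.0 ± 11.6 (SD, n = 4 each).

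**Figure D4:**
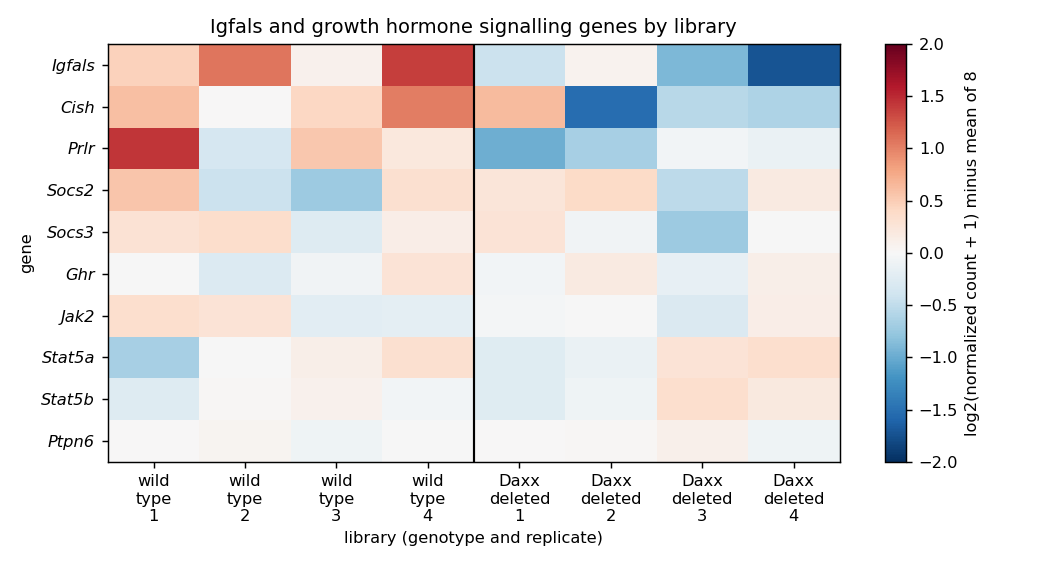
Log2(normalized count + 1) minus the mean of the 8 libraries (colour) for Igfals and 9 genes of growth hormone and prolactin signalling (rows) in each library (columns, wild type left of the line). Igfals is below its mean in 3 of the 4 Daxx-deleted libraries and near it in replicate 2, Cish is lowest in Daxx-deleted replicate 2, and Ptpn6 is near its mean throughout.

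Below the receptors, of 24 tested genes of the PI3K, AKT and mTOR cascade 11 lay above the median log2 difference of all tested genes and 13 below. Of the 24 genes 0 were called, where 0% of the 10468 tested genes were. Akt1, a kinase gene, had 1063 ± 16.3 and 1061 ± 82.1, and Pik3r1, a regulatory subunit of the kinase that the substrates recruit, had 522.9 ± 86.1 and 434.8 ± 21.0 (SD, n = 4 each). Pik3r2, a second regulatory subunit gene, had 116.8 ± 21.5 and 143.3 ± 33.3. Of 8 tested adaptor genes other than Irs1 and Irs2, 6 lay above that median and 2 below. Grb10, an adaptor that restrains both receptors, had 581.3 ± 41.8 and 505.7 ± 37.5, with a log2 difference of -0.20 ± 0.11 (SE), and Sh2b1, an adaptor that enhances insulin signalling, had 96.2 ± 14.3 and 107.1 ± 10.5.

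Igfals and Daxx share chromosome 17, with their starts 9.04 Mb apart, so the genes next to Igfals were read as well. Of 10 other protein-coding genes with a start within 100 kb of that of Igfals, 8 were tested. Of these 0 were called, where 0% of the 10468 tested genes were. With the deposited scaling 2 lay above 0 and 6 below, against 48.1% of all tested genes above 0, and with equal library totals 5 lay above and 3 below. Relative to the median of all tested genes the split was 2 above and 6 below under both, and the signs of Fahd1, Eme2 and Jpt2 changed when single libraries were left out. Their log2 differences ran from -0.36 for Spsb3 to 0.41 for Nubp2. Nubp2, whose end lies next to that of Igfals on the opposite strand, had 34.8 ± 9.09 in wild type, against 46.9 ± 13.2 in Daxx-deleted pancreas, and Hagh, upstream, had 197.0 ± 24.6 and 181.2 ± 18.6 (SD, n = 4 each). Fahd1 (0.13), Eme2 (-0.10), Mapk8ip3 (-0.10), Jpt2 (-0.15) and Mrps34 (-0.23) lay between the ends of that range. No annotated protein-coding neighbour overlapped Igfals.

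**Figure D5:**
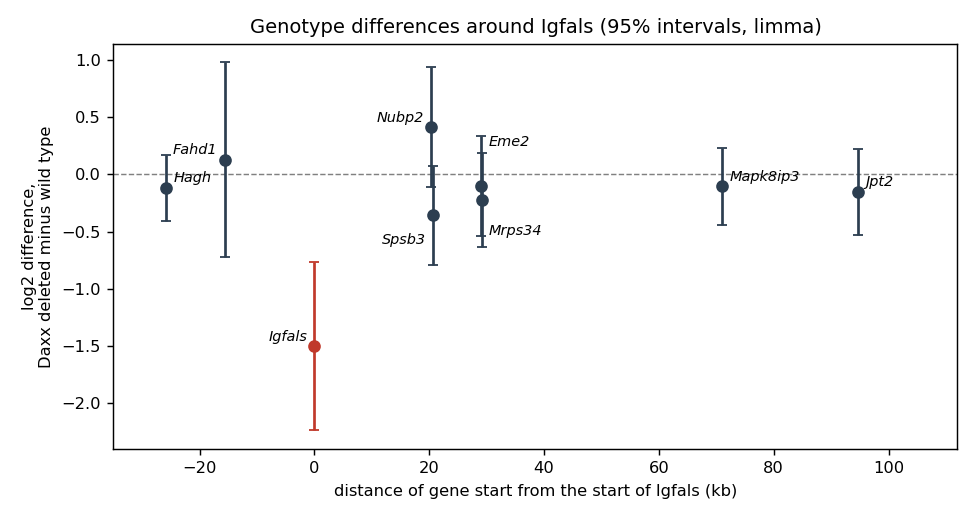
Log2 differences between genotypes (vertical axis, Daxx-deleted minus wild type, with 95% intervals from limma) of Igfals (red) and the 8 tested protein-coding genes around it against the distance of their starts from that of Igfals in kb (horizontal axis). Igfals is at -1.50 and its neighbours lie between -0.36 and 0.41.

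Levels of liver genes were read because liver is the main source of Igfals RNA in the body. Of 11 hepatocyte markers 3 were listed, Alb, Apoa1 and Cyp2e1, while Apoa2, Ahsg, Fga, Fgb, Fgg, Cps1, Serpina1a and Tat were not. Their summed level was 26.1 to 89.4 normalized counts in the wild-type libraries, against 25.8 to 53.5 in the Daxx-deleted ones. Alb, which encodes albumin and had the highest mean of these markers, had 30.8, 18.3, 24.3 and 26.6 in wild type, against 17.5, 23.3, 16.7 and 21.0 in Daxx-deleted replicates 1 to 4. Its log2 difference was -0.32, and of 2 hepatocyte markers tested 1 had a positive difference. Alb did not carry the sum of wild-type replicate 4, where it had 26.6 of 89.4. Wild-type replicate 4 had the highest sum and also the highest Igfals, and without it the log2 difference of Igfals was -1.29. In the rest the order differed: Daxx-deleted replicate 4, with the lowest Igfals, had the highest sum of its group at 53.5, and wild-type replicate 2, with the second highest Igfals, had the lowest wild-type sum at 26.1. Adipocyte markers, 6 of 8 listed, summed to 129.5 to 341.0 in wild-type libraries against 75.6 to 591.5 in Daxx-deleted ones, and Daxx-deleted replicates 2 and 4 were the highest and lowest of their group for both Igfals and this sum. In wild type the orders differed, since replicate 4, highest in Igfals, had a sum of 153.2 and replicate 1 had 341.0. The part of either cell type in the Igfals values was not tested, apart from the relation of Igfals to an adipocyte marker score given below. The level of 4 Y-linked genes, a stand-in for sex, was high in 2 libraries of each genotype, with a mean log2 value of 5.31 to 6.23 against 0 to 0.44 in the others. With that level as a covariate the log2 difference of Igfals was -1.51.

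Relations of the 10 genes to 7 marker scores were tested over all 8 libraries. Each score was the mean log2 level of the acinar, islet, ductal, stroma, endothelium, macrophage or adipocyte markers. Of 70 relations 6 had an unadjusted exact permutation p under 0.05 and 0 passed after Benjamini-Hochberg adjustment. The closest was that of Igfbp4 with the stroma score, with Pearson r of 0.90 (two-sided exact permutation p = 0.00216, adjusted p = 0.151) and Spearman rho of 0.76 (exact permutation p = 0.0368, adjusted p = 0.442). With the genotype means removed it was 0.90, and without wild-type replicate 4 and Daxx-deleted replicate 4, the 2 libraries farthest from the median score, it was 0.65. Igfbp4 also had r of 0.75 with the macrophage score (exact permutation p = 0.0347, adjusted p = 0.486) and rho of 0.90 (exact permutation p = 0.00456, adjusted p = 0.160), and r was 0.79 without the 2 farthest libraries. Igfbp5 had r of 0.78 with the macrophage score (exact permutation p = 0.0201, adjusted p = 0.486) and rho of 0.67 (exact permutation p = 0.0831, adjusted p = 0.447), and r was 0.69 without the 2 farthest. Its r with the adipocyte score was 0.72 (exact permutation p = 0.0354, adjusted p = 0.486), with rho of 0.90 (exact permutation p = 0.00456, adjusted p = 0.160) and r of 0.60 without the 2 farthest. These relations with macrophage and adipocyte markers share the same outlying libraries, Daxx-deleted replicates 2 and 4. Irs2 had r of 0.74 with the islet score (exact permutation p = 0.0396, adjusted p = 0.486) and rho of 0.74 (exact permutation p = 0.0458, adjusted p = 0.442), and r was 0.89 without the 2 farthest. Insr had r of 0.72 with the acinar score (exact permutation p = 0.0417, adjusted p = 0.486) and rho of 0.71 (exact permutation p = 0.0576, adjusted p = 0.442), and r was 0.78 without the 2 farthest. For Igfals the 7 values of r ran from -0.32 with ductal to 0.56 with adipocyte markers, and the smallest adjusted exact permutation p was 0.632. Stroma markers summed to 3600 to 5625 normalized counts in wild type, against 3929 to 6334 in the Daxx-deleted ones, macrophage markers to 277.1 to 415.1 and 249.9 to 476.5, and islet markers to 2217 to 8136 and 1771 to 7779.

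Between the members themselves 45 relations were computed and 0 passed adjustment, with a smallest adjusted exact permutation p of 0.760. Igfbp5 and Irs2 had r of -0.77 (two-sided exact permutation p = 0.0295, adjusted p = 0.760) and rho of -0.71 (exact permutation p = 0.0576, adjusted p = 0.771), and r was -0.78 without the 2 libraries farthest in Igfbp5. Igfbp4 and Igfbp5 had r of 0.73 (two-sided exact permutation p = 0.0338, adjusted p = 0.760) and rho of 0.60 (exact permutation p = 0.132, adjusted p = 0.771). That relation rested on wild-type replicate 4 and Daxx-deleted replicate 4, since r was -0.13 without them. Igfals and Igf1 had r of 0.63 over the 8 libraries (exact permutation p = 0.0970, adjusted p = 0.824) and rho of 0.50 (exact permutation p = 0.216, adjusted p = 0.771). With the genotype means removed, r was 0.81 (permutation p = 0.0186, adjusted p = 0.296) and rho 0.76, and r was 0.75 without the 2 farthest libraries. That permutation mixed values across genotypes after their means were removed, so its p is approximate and can be too small. Of the 45 pairs 6 had an unadjusted p under 0.05 by it, and 0 passed adjustment. Among the 6 were also Igf1 with Irs2 (r of -0.78), Igf1r with Insr (0.77) and Igf2r with Irs1 (0.71).

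The genes whose pattern over the 8 libraries was most like that of Igfals were found by Pearson r of the log2 values among all tested genes, as a description over 8 libraries of shared origin. They were Eri2 (r of 0.96), Ccdc71l (0.95) and Bicdl1 (0.94), with means of 16.5 ± 3.52 and 9.41 ± 3.29 for Eri2, 34.9 ± 2.09 and 28.7 ± 3.83 for Ccdc71l and 18.1 ± 3.69 and 9.89 ± 2.15 for Bicdl1 (SD, n = 4 each). They are extremes of 10468 genes, and whether such r exceeds chance was not tested. In each of them the genotypes did not overlap, so r partly repeats the genotype difference that chose Igfals. Eri2 rests on 5 to 24 reads per library and Bicdl1 on 7 to 22. The most opposite were Cyp26b1, which encodes an enzyme that clears retinoic acid (r of -0.95), and March2 (-0.95). Cyp26b1 had 3.52, 0, 5.84 and 0.885 normalized counts in wild type, against 8.26, 5.83, 47.9 and 47.2 in Daxx-deleted replicates 1 to 4. The 2 Daxx-deleted libraries lowest in Igfals were thus the 2 highest in Cyp26b1. These libraries, replicates 3 and 4, also had a high Y-linked level (5.31 and 6.19), against 0 and 0.44 in Daxx-deleted replicates 1 and 2. In wild type the level was high in replicates 3 and 4 too, where Cyp26b1 had 5.84 and 0.885. Whether sex bears on the relation of Cyp26b1 to Igfals was not tested. With the genotype means removed, other genes took these places: Rtf1 (0.94) and Ndufs1 (0.94) were among the most like Igfals, and Dnajc14 (-0.98) and Sdsl (-0.97) most opposite. For Igf1 they were Atad2b (0.98), Rnf146 (0.97) and Zbtb37 (0.96).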

How the data were processed

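The deposited table holds 1 signal value per gene and library, which, judged from its whole-multiple steps, the authors made by scaling read counts by 1 factor per library. The tools named are STAR 2.6.0b and DESeq2 with the build GRCm38, per the submitters' processing notes, with read counter and gene filter not given in the sources used here. Whole reads were recovered for 100% of values (tolerance 0.001). Log2(normalized count + 1) of the 10468 genes with a mean of at least 10 was fitted with limma 3.58.1 (R 4.3.3, trend option, genotype as the only term), with two-sided p-values adjusted by Benjamini-Hochberg. The fit was checked on simulated counts. Libraries have no labelled sex or batch, the 4 mice per genotype (2 of each sex) are taken as separate animals from the design text, and replicate numbers follow accession order. Relations used exact permutation tests over all pairings of 8 libraries (scipy 1.17.1). With genotype means removed the same permutation is only approximate, since it ignores genotype. Coordinates and exon lengths are from GENCODE M21, promoters from RefSeq.

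The members, gene lists and tests were chosen with earlier results of these data known. Named outside the members are Daxx, the 2 genes of smallest unadjusted p in each pathway list, the genes within 100 kb of Igfals, the most alike genes and the most abundant markers. Other genes were named after their values were seen, and 1 gene that this rule names is not reported here. The alternatives were other pseudocounts, TMM, equal totals, other filters, robust moderation, a Y-linked covariate, each library left out, and tests of the recovered reads with DESeq2 1.42.0 or edgeR 4.0.16.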

Additional observations from a re-analysis of the deposited data

How the results depend on the processing

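No gene was called by limma in the fit described. An adjusted p under 0.05 was reached by 1 gene, Bglap3, with equal library totals, with robust moderation, with the Y-linked covariate and in DESeq2, and by 0 to 1 genes when single libraries were left out (1 without Daxx-deleted replicate 2). Without adjustment, p was under 0.05 for 302 genes in limma (138 higher and 164 lower), for 299 in edgeR, which called 0, and for 219 in DESeq2. Equal totals changed that split to 396 higher and 33 lower. Over 18 alternatives the log2 difference of Igfals ran from -1.77 (without Daxx-deleted replicate 2) to -1.17 (without Daxx-deleted replicate 4), and 6 of the 10 members kept their sign throughout. Equal totals, which moved the median of all genes to 0.11, took Igf1 to 0.05, Igf2r to 0.04 and Irs2 to 0.02, each below 0 relative to that median. Igf1 (0.01 without Daxx-deleted replicate 3) and Igfbp4 (-0.21 without wild-type replicate 4, -0.07 without Daxx-deleted replicate 2) also changed sign. The counts of relations to marker scores past adjustment stayed at 0 with genotype means removed and with summed scores. With the means removed, 12 of 70 had an unadjusted permutation p under 0.05. That p is approximate and can be too small, so the count is not set against the one without removal. No paired analysis was possible because the replicate numbers follow accession order and the labels give none shared between genotypes. Igfals rests on 13 to 142 reads per library. Unlisted genes such as Igf2 were not analysed here.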

Other observations

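Insrr, the insulin receptor relative on the pathway list, was ordered over the libraries much as the insulin gene Ins2 was. The 5 libraries highest in Insrr, from 9.74 to 38.5 normalized counts, were also the 5 highest in Ins2, from 1359 to 3517. They were wild-type replicates 1, 3 and 4 and Daxx-deleted replicates 3 and 4. The other 3 libraries had 6.52 to 8.26 for Insrr and 647.2 to 983.4 for Ins2. This was seen after the values were examined and was not tested.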
